A study of Mus musculus with 26 samples.

Results

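The genes described here were 10 genes of retinal blood vessels, taken from the 37991 Ensembl genes counted in mouse retina. They were chosen by name for their roles in vascular cells, and each symbol matched 1 Ensembl gene. There were 7 endothelial genes, Pecam1, Cdh5, Cldn5, Kdr, Flt1, Tek and Slco1c1, which are used in the cells that line a vessel. A pair of genes, Pdgfrb and Rgs5, mark pericytes, the contractile cells wrapped around capillaries, and Vegfa encodes the growth factor that endothelial cells depend on.

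All 26 libraries came from mice homozygous for rd10, a mutation of the rod phosphodiesterase gene Pde6b in the strain B6.CXB1-Pde6b rd10/J, in which rods degenerate early in life. Mice of both sexes were injected intraperitoneally from postnatal day 9 (PN9), and tissue was collected at PN24. The labels give daily injections, while for DZNep the study also describes a schedule that began daily at the higher dose and went on at the lower dose on alternate days. In 4 experiments RNA came from whole retina: DZNep at 1 to 1.5 mg/kg (2 libraries, 4 controls), UNC1999 at 15 mg/kg (3 and 3), UNC0642 at 7.5 mg/kg (2 and 2) and Romidepsin at 0.2 mg/kg (3 and 3). DZNep blocks S-adenosylhomocysteine hydrolase and lowers EZH2, the writer of trimethylation at histone H3 lysine 27, UNC1999 inhibits EZH2 directly, UNC0642 inhibits the H3 lysine 9 methyltransferases EHMT2 and EHMT1, and Romidepsin inhibits histone deacetylases. In the fifth experiment the rd10 mice also carried the Nrl-EGFP transgene, whose Nrl promoter drives a green fluorescent protein in rods, and GFP-positive rods were sorted by flow cytometry after GSK2879552, an inhibitor of the demethylase LSD1, at 4.2 mg/kg (2 libraries) or after control injections (2 libraries). The labels give saline for the controls, while UNC1999 was given in a mixture of DMSO, PEG300, Tween-80 and saline. The study in 1 place names diluent for the UNC1999 controls, so it is not clear whether they received that mixture, and with saline controls the drug and the mixture cannot be told apart. The labels call the libraries of a group biological replicates without saying whether retinas were pooled, and p-values measure the spread between these libraries.

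The retina is fed by capillaries whose endothelial cells are sealed to each other by tight junctions and wrapped by pericytes, which together form the inner blood-retina barrier. VEGFA, released by glia, pigment epithelium and neurons, binds the receptors KDR (VEGFR2), which carries most of the growth signal, and FLT1 (VEGFR1), which binds the ligand tightly and signals weakly. Loss of photoreceptors, which consume most of the oxygen of the outer retina, is known to be followed by thinning of retinal capillaries in rod degenerations. KDR protein has also been described in Müller glia and neurons of the retina.

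Library depth ranged from 13732959 to 36354094 counted reads in whole retina and from 7289460 to 19864491 in sorted rods. Every member had at least 69 reads in each whole retina library, with the fewest for Slco1c1, Tek and Cdh5, where counting error can be as large as the spread between libraries. In sorted rods 6 members (Cdh5, Cldn5, Tek, Slco1c1, Pdgfrb and Rgs5) had at most 82 reads in each library. Rod markers (10 genes) had a higher summed level in every treated retina library than in its controls, for example 54452 to 56120 CPM (read counts scaled to a common library size) with DZNep against 17459 to 29277. In DZNep library 2 the 6 lens markers summed to 58.4 CPM, against 1.25 to 2.44 in the other libraries of that experiment, and without it 3 members passed the DZNep comparison. Because the retina is a mixture, fewer cells of a type and less RNA per cell cannot be told apart in these values.

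Kdr lies on chromosome 5 (76328852 to 76374483, minus strand, build NCBIM37, as for all gene positions here), Cldn5 on chromosome 16 (18776940 to 18778353), Slco1c1 on chromosome 6 (141472907 to 141518241) and Vegfa on chromosome 17 (46153942 to 46169326, minus strand). The sequences that follow are the promoters of the 4 genes whose changes the results turn on, from 250 bases before to 50 bases after the start of transcription, from RefSeq on build GRCm38.p6 (7 of the 10 members had an entry). Capitals mark matches on either strand to the GC box GGGCGG, the hypoxia response cores ACGTG and GCGTG, and the ETS factor cores CGGAAG and AGGAAG.
Kdr, chr5:75978406-75978705, minus strand: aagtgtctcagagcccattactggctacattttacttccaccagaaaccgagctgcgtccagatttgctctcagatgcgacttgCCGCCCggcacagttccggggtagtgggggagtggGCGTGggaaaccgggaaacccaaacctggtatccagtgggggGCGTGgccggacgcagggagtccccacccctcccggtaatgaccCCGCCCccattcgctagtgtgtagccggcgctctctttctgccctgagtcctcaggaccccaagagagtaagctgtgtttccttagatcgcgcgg
Cldn5, chr16:18776597-18776896, plus strand: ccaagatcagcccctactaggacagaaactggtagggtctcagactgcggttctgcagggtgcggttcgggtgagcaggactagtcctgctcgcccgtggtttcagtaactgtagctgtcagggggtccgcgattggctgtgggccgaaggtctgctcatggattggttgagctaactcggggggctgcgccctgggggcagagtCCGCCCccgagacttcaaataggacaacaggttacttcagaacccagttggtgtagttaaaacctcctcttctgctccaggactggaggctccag
Slco1c1, chr6:141524104-141524403, plus strand: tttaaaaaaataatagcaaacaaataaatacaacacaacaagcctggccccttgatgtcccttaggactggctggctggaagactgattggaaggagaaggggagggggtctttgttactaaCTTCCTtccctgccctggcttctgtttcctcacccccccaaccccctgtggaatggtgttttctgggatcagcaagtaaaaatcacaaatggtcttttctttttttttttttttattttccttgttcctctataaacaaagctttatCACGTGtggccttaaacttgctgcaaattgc
Vegfa, chr17:46032328-46032627, minus strand: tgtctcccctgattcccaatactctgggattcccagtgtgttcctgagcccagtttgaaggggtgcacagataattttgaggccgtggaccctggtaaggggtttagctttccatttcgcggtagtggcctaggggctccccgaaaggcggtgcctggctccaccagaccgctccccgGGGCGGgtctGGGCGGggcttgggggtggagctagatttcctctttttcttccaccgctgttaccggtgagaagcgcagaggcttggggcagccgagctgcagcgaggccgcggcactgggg
Kdr held 2 GC boxes and 2 copies of GCGTG, Cldn5 held 1 GC box, and this Vegfa promoter, the upstream of 2 entries, held 2 GC boxes. Slco1c1 held no GC box and had 42.0% G and C bases, against a median of 52.7% over all 32851 promoters. Its sequence held ACGTG on both strands in a single overlapping CACGTG, and 1 AGGAAG. Of all promoters of this length, 35.7% held the GC box, 19.6% ACGTG, 32.4% GCGTG, 16.9% CGGAAG and 35.4% AGGAAG. A match is a run of letters and not a measured binding site.

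In control retinas the vascular genes spanned a wide range of levels, compared here as CPM per kb of exon so that gene length does not enter. Kdr was the most abundant member, with a mean over the 4 control groups of 73.9 CPM per kb (group means 58.0 to 84.5). Vegfa followed at 41.4 (32.5 to 46.0) and did not overlap with Kdr. The pericyte gene Rgs5 stood at 28.7 (22.7 to 36.2) and Cldn5 at 20.2 (8.07 to 26.6), and each overlapped with its neighbour in this order. Flt1 had 10.6, Pdgfrb 7.42, Cdh5 3.65, Pecam1 3.53, Tek 2.47 and Slco1c1 2.11 CPM per kb, and no neighbouring pair among these had separate ranges of group means. Cdh5 and Pecam1, which mark all endothelium, were thus far below Kdr.

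**Figure D1:**
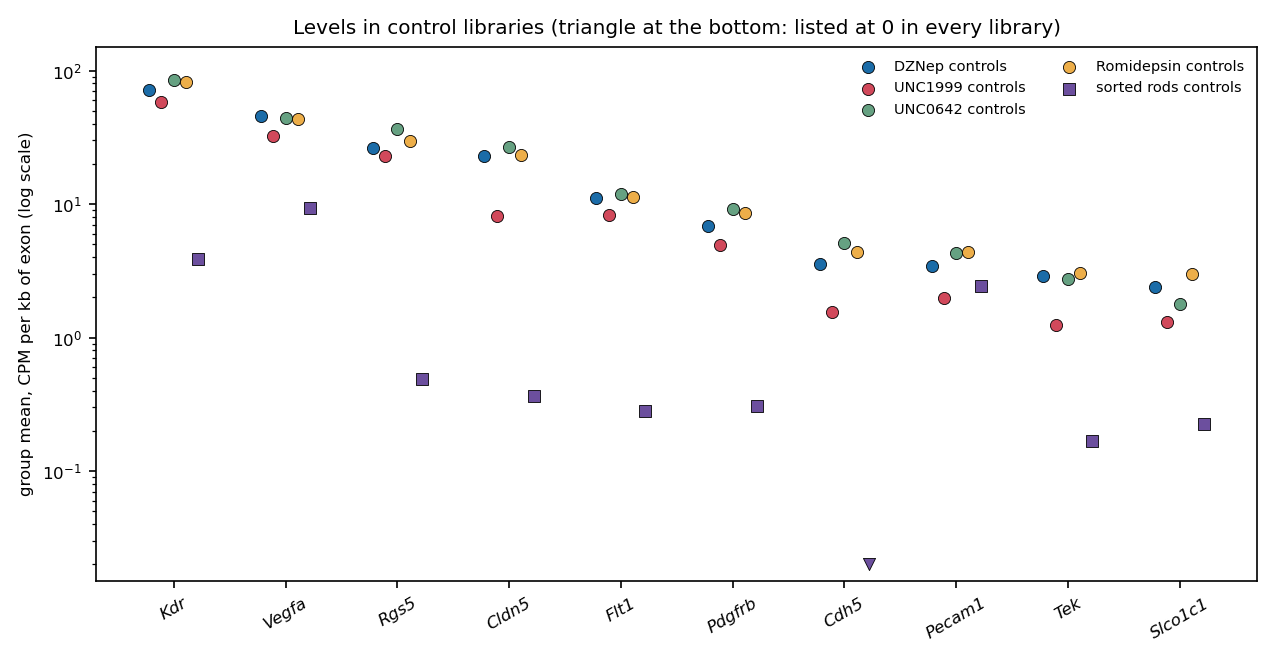
Mean level of each vascular gene in the control groups, in CPM per kb of exon on a log scale, for the 4 whole retina experiments (circles) and for sorted rods (squares). Kdr was highest in every retina control group, at 58.0 to 84.5, and Cdh5 was at 0 in both sorted rod controls.

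Control levels also differed between experiments. The controls of the UNC1999 experiment had a lower mean than every other control group for all 10 members, from 33.3% of the mean of the other 3 groups for Cldn5, 36.1% for Cdh5 and 42.9% for Tek to 73.1% for Vegfa, 73.3% for Kdr and 74.1% for Rgs5. The junction genes and Tek were thus further below the other groups than Kdr, Flt1 (72.7%), Rgs5 and Vegfa. Library names of that experiment carry another series, and the experiment and the series cannot be told apart. Each treatment was therefore tested against its own controls only.

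DZNep was the only treatment with members past an adjusted p of 0.05 in edgeR's quasi-likelihood test, 3 of 10 and all lower (Kdr, Cldn5 and Pdgfrb), where 22.7% of all 16477 genes tested passed and 9.72% passed as lower. With UNC1999, 0 of 10 passed (0.602% of all genes), with 4 at an unadjusted p under 0.05 (23.6% of all genes) and 3 in the likelihood ratio test and in DESeq2. With UNC0642, 0 of 10 passed (0% of all genes), with 2 at an unadjusted p under 0.05 (14.7%), 0 in the likelihood ratio test and 1 in DESeq2. With Romidepsin, 0 of 10 passed (0.748% of all genes), with 2 at an unadjusted p under 0.05 (19.4%) and 2 by each of the other tools. The counts by the other tools have no share of all genes beside them. Over all alternatives up to 2707 genes passed with UNC1999, 1052 with UNC0642 and 2987 with Romidepsin. With an absolute log2 fold change above 1 asked for as well, no member passed the quasi-likelihood test in any experiment. Of all genes, 1.71% did with DZNep, 0.368% with UNC1999, 0% with UNC0642 and 0.561% with Romidepsin. The study used this fold rule with the likelihood ratio test. Slco1c1 exceeded it with UNC1999, at 1.11, and was among the 3 members that passed in the likelihood ratio test and in DESeq2. The median log2 fold change of the members was -0.07, -0.08, 0.03 and -0.11 in the 4 experiments, where the median of all genes was 0.00, 0.00, 0.00 and -0.01. The members' median thus lay near that of all genes, and the larger values belonged to single members.

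**Figure D2:**
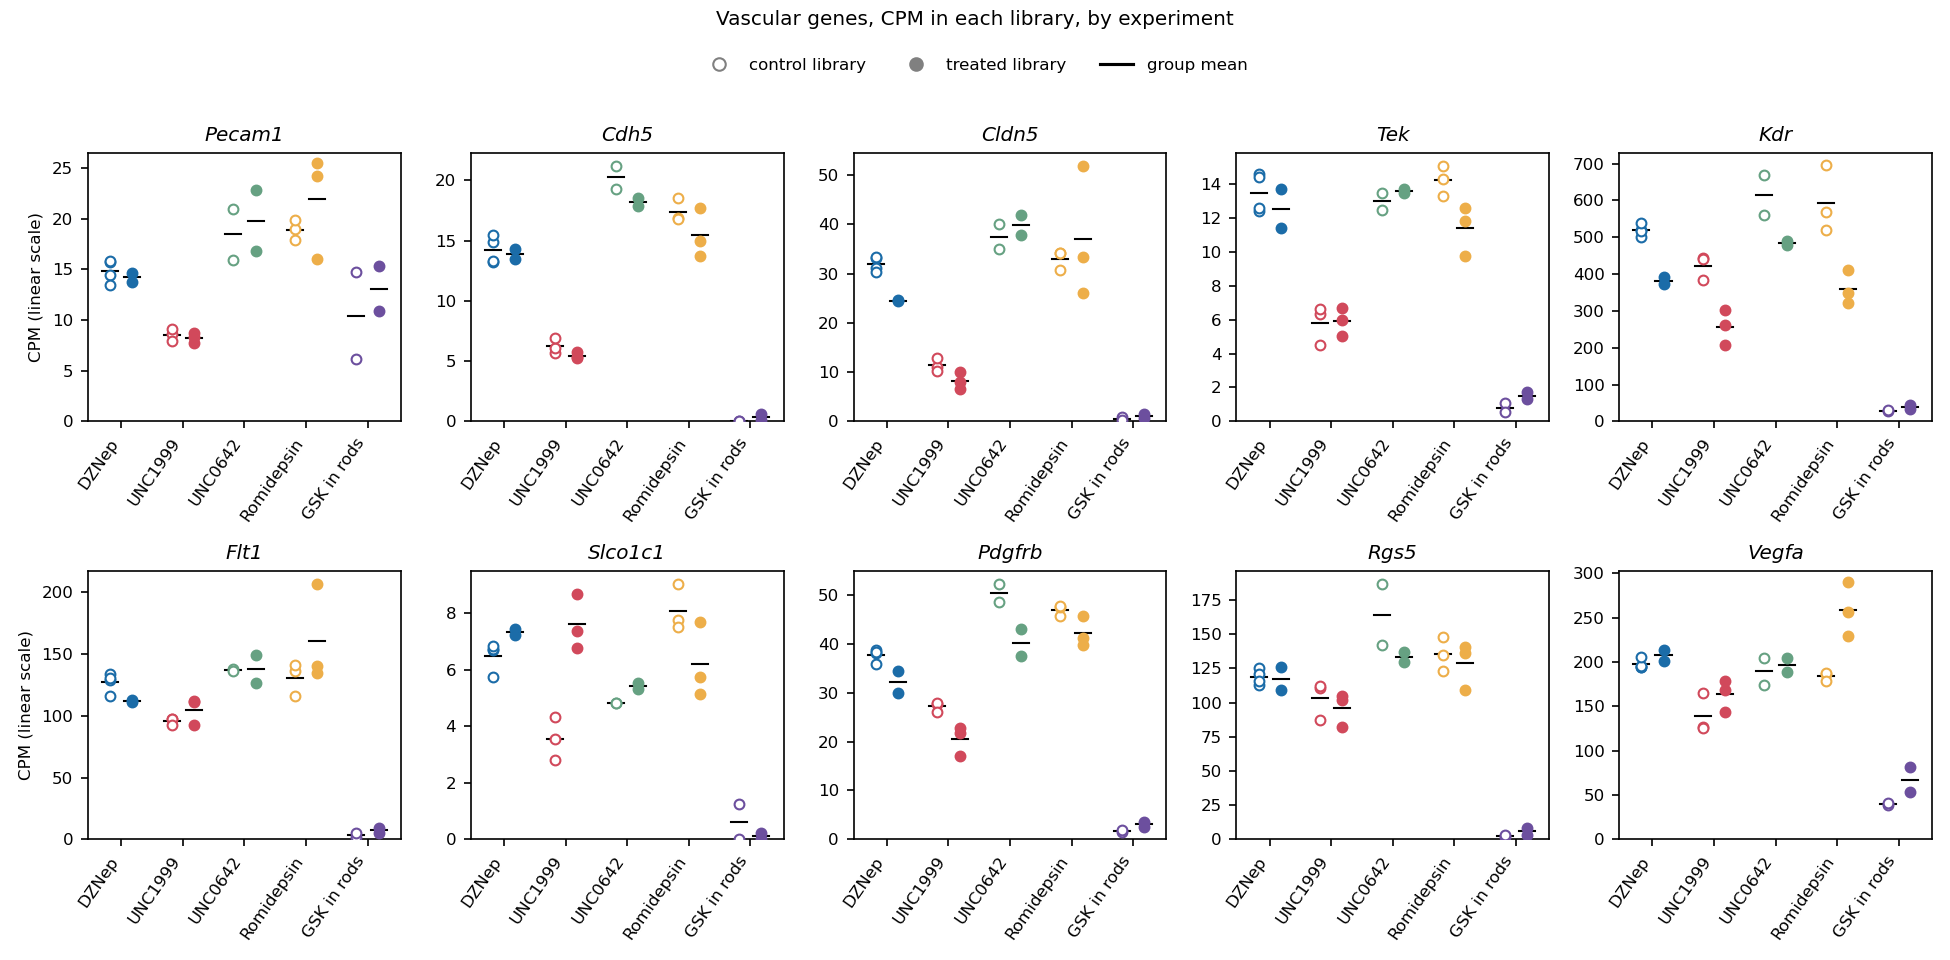
Level of the 10 vascular genes in each of the 26 libraries, in CPM on linear axes, with control libraries as open points, treated libraries as filled points and group means as bars. Kdr and Pdgfrb were below their controls in every whole retina experiment, and the UNC1999 experiment had the lowest retina levels of Cdh5, Cldn5 and Tek.

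Kdr was lower in treated than in control retinas in all 4 experiments, and the groups did not overlap in any of them. With DZNep it had 392 and 373 CPM, against 501, 521, 518 and 539 in the controls, and it fell by 0.44 on the log2 scale (SE 0.05, adjusted p = 0.00119). With UNC1999 it had 261, 303 and 207 CPM against 443, 440 and 383, a log2 fold change of -0.72 (SE 0.13, adjusted p = 0.0533). Each treated library was thus far below the lowest control, although the adjusted p just missed the threshold. With UNC0642 the levels were 489 and 480 CPM against 560 and 669 (-0.34, SE 0.10, adjusted p = 0.299). With Romidepsin they were 410, 349 and 322 CPM against 568, 695 and 520 (-0.72, SE 0.15, adjusted p = 0.0634). As linear folds these were 0.737, 0.607, 0.790 and 0.607 of control in that order. The UNC1999 value passed in DESeq2 (adjusted p = 1.97e-05) and in the likelihood ratio test (0.000102), and the Romidepsin value passed in the same pair of tests (0.00119 and 0.00245).

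Groups were apart with treated lower in 21.5% of all genes with DZNep, 13.6% with UNC1999, 25.2% with UNC0642 and 12.5% with Romidepsin, but only 173 of the 15375 genes tested in all 4 experiments (1.13%) were so in each of them. Kdr and Pdgfrb were 2 of these, and no member was higher with groups apart in all 4 (1.39% of genes were). The Kdr effects of the 4 treatments differed from each other by -0.37 to 0.38 on the log2 scale, with SEs of 0.18 to 0.20, and none of the 6 differences passed. A contrast chosen after these values were seen, the mean of the 4 effects in a fit of all 22 retina libraries, gave -0.55 for Kdr (SE 0.07, adjusted p = 3.94e-05).

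Flt1, the other VEGF receptor, did not move with Kdr. It had 111 and 113 CPM with DZNep against 116 to 134 in the controls (-0.19, SE 0.06, adjusted p = 0.0564), a difference that passed in DESeq2 (0.0440). With UNC1999 it had 92.3 to 112 CPM against 92.7 to 97.7 (0.13, SE 0.08, adjusted p = 0.366), and with UNC0642 149 and 127 against 138 and 136 (0.01, SE 0.09, adjusted p = 0.971). With Romidepsin 1 library stood high at 207 CPM, while the others had 140 and 135 against 116 to 141 in the controls (0.30, SE 0.18, adjusted p = 0.397). Flt1 was thus lower in 1 experiment and higher in 3, and treated and control libraries overlapped in all but the DZNep experiment.

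Cldn5 encodes claudin 5, the main tight junction strand protein of retinal and brain endothelium. With DZNep it had 24.7 and 24.4 CPM against 33.1, 31.2, 33.4 and 30.4, and it fell by 0.38 on the log2 scale (SE 0.06, adjusted p = 0.00423). With UNC1999 it had 10.0, 8.05 and 6.65 CPM against 11.1, 12.9 and 10.2, again with no overlap (-0.48, SE 0.17, adjusted p = 0.140). UNC0642 gave 37.9 and 42.0 CPM against 35.0 and 40.1 (0.09, SE 0.10, adjusted p = 0.690). Romidepsin gave a wide spread, 33.4, 51.9 and 26.0 CPM against 30.7 to 34.3 (0.16, SE 0.23, adjusted p = 0.742), and the sign turned without library 2 (-0.16). The lower Cldn5 level was thus a feature of the DZNep and UNC1999 libraries, but the difference between UNC1999 and Romidepsin, -0.66 (SE 0.27), did not pass (adjusted p = 0.159).

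Cdh5 encodes VE-cadherin, the adhesion molecule of endothelial adherens junctions, and Pecam1 encodes CD31, a surface protein of endothelium that platelets and leukocytes also carry. Cdh5 had log2 fold changes of -0.04, -0.20, -0.16 and -0.17 with DZNep, UNC1999, UNC0642 and Romidepsin, with SEs of 0.10 to 0.15 and adjusted p-values of 0.421 to 0.811. Its levels were 13.5 and 14.3 CPM against 13.2 to 15.5 with DZNep, 5.28 to 5.73 against 5.65 to 6.95 with UNC1999, 17.9 and 18.5 against 19.3 and 21.2 with UNC0642, and 13.7 to 17.7 against 16.8 to 18.5 with Romidepsin. Pecam1 had log2 fold changes of -0.06, -0.06, 0.10 and 0.21, and treated and control libraries overlapped in each experiment. Cdh5 lay wholly below its controls only with UNC0642. In the other experiments both genes overlapped with their controls in retinas where Kdr did not. Tek, the angiopoietin receptor TIE2, had -0.09, 0.02, 0.07 and -0.32, and only the Romidepsin libraries, at 11.8, 12.6 and 9.79 CPM against 13.3, 15.1 and 14.3, lay wholly below their controls (adjusted p = 0.298).

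**Figure D3:**
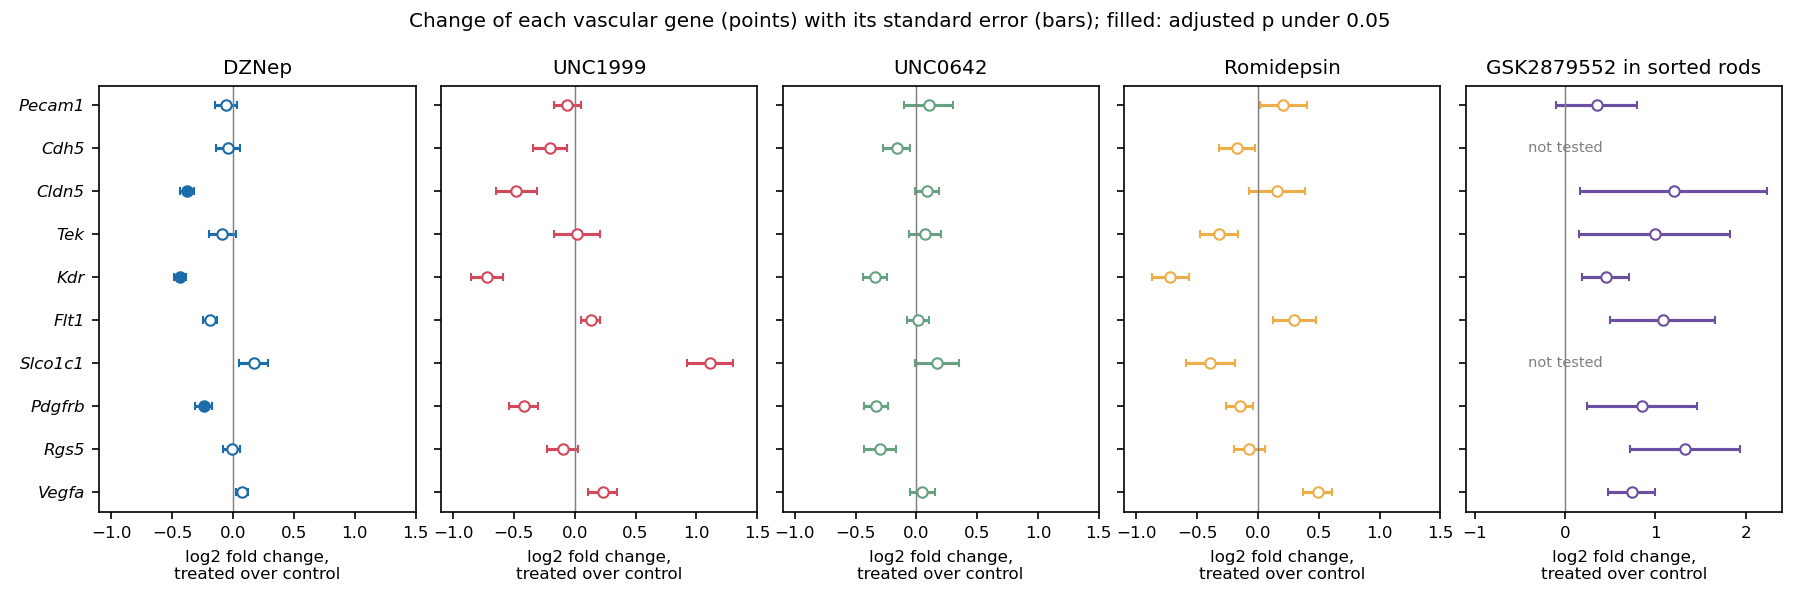
Log2 fold change of each vascular gene, treated over control, with its standard error, in each of the 5 experiments, where filled points passed an adjusted p of 0.05. Kdr lay at -0.34 to -0.72 in whole retina, where Pecam1 and Cdh5 stayed within 0.21 of 0 and Slco1c1 reached 1.11 with UNC1999, while Pecam1 had 0.35 in sorted rods.

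Slco1c1 encodes a transporter that carries thyroxine across brain capillaries. With UNC1999 it had 6.77, 7.37 and 8.68 CPM against 3.54, 2.80 and 4.33, about 2.16-fold higher with no overlap, at a log2 fold change of 1.11 (SE 0.19, adjusted p = 0.0533). That value passed in DESeq2 (adjusted p = 0.000154) and without UNC1999 control 3 (0.00470). With DZNep it had 7.21 and 7.44 CPM against 5.72 to 6.84 (0.17, SE 0.12, adjusted p = 0.336), and with UNC0642 5.52 and 5.32 against 4.81 and 4.82 (0.17, SE 0.18, adjusted p = 0.661). With Romidepsin it was 7.69, 5.74 and 5.13 CPM against 7.74, 9.03 and 7.49 (-0.39, SE 0.20, adjusted p = 0.333). Of the 60 differences between treatments tested over the members, Slco1c1 between UNC1999 and Romidepsin was the 1 that passed, at 1.49 on the log2 scale (SE 0.23, adjusted p = 0.00362), where 5.11% of all genes passed in that pair, and 9 had an unadjusted p under 0.05. In the other pairs the shares of all genes that passed were 0.289% (DZNep and Romidepsin), 0.0232% (DZNep and UNC0642), 0.00579% (DZNep and UNC1999), 0.0174% (UNC0642 and Romidepsin) and 0.0116% (UNC1999 and UNC0642).

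By their median, markers of the retinal pigment epithelium went the same way as Slco1c1 in each retina experiment, but not by like amounts. Their median log2 fold changes were 1.71 (UNC1999), 1.08 (DZNep), 0.58 (UNC0642) and -0.73 (Romidepsin). Slco1c1 had 1.11, 0.17, 0.17 and -0.39 in that order. With UNC1999 the 8 markers summed to 367 to 421 CPM against 118 to 138, and 6 of them rose, where 0.602% of all genes passed. With DZNep they summed to 214 to 248 CPM against 72.2 to 170, and 5 of them rose, where 22.7% of all genes passed. With UNC0642 they summed to 162 to 184 CPM against 79.8 to 141, and none passed. With Romidepsin they summed to 62.5 to 70.8 CPM against 99.8 to 109, none of them passed, and 6 had an unadjusted p under 0.05. The 6 markers of choroid pigment cells were also apart from their controls with UNC1999, at 94.5 to 112 CPM against 28.2 to 47.4. With Romidepsin they had 14.5 to 30.5 CPM against 50.2 to 73.6. They overlapped with their controls with DZNep (39.9 to 199 against 27.4 to 71.1) and UNC0642 (41.8 to 58.3 against 31.8 to 80.6). The part of either list in the Slco1c1 difference was not tested.

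Pdgfrb, the receptor that holds pericytes to the vessel through PDGF-B, was lower with groups apart in all 4 retina experiments. With DZNep it had 29.9 and 34.5 CPM against 38.8, 38.2, 35.9 and 38.3, and it fell by 0.24 on the log2 scale (SE 0.07, adjusted p = 0.0418). With UNC1999 it had 21.7, 22.7 and 17.0 CPM against 27.8, 27.9 and 26.1 (-0.42, SE 0.12, adjusted p = 0.0883). UNC0642 gave 43.0 and 37.5 CPM against 48.7 and 52.4 (-0.33, SE 0.10, adjusted p = 0.300), and Romidepsin 41.3, 39.8 and 45.8 against 45.8, 47.5 and 47.8 (-0.15, SE 0.11, adjusted p = 0.486). The highest Romidepsin library thus reached the lowest control to the printed digit. The DZNep call was lost in DESeq2 (adjusted p = 0.0594) and without DZNep library 1 (0.341) or controls 1, 2 or 4 (0.0551, 0.0909 and 0.0741). Over the mean of the 4 treatments Pdgfrb fell by 0.28 (SE 0.05, adjusted p = 0.000849).

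Rgs5, a regulator of G protein signalling abundant in pericytes, did not share this pattern. Its log2 fold changes were -0.01, -0.10, -0.30 and -0.07, with adjusted p-values of 0.346 to 0.952. Only the UNC0642 libraries, at 130 and 137 CPM against 142 and 187, lay below their controls. In the other experiments treated levels were 109 and 126 CPM (DZNep), 81.9 to 105 (UNC1999) and 109 to 141 (Romidepsin), each within or across the control range of 113 to 125, 87.0 to 112 and 123 to 148. With UNC0642 both pericyte genes thus lay below their controls, at -0.33 for Pdgfrb and -0.30 for Rgs5. Elsewhere Pdgfrb was lower with little difference in Rgs5, and the 2 genes were not tested against each other.

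Vegfa was above its controls on average in all 4 retina experiments, by the most with Romidepsin. There it had 229, 290 and 256 CPM against 187, 188 and 179, 1.40-fold higher with no overlap, at a log2 fold change of 0.49 (SE 0.12, adjusted p = 0.0844). DESeq2 and the likelihood ratio test gave adjusted p-values of 0.0152 and 0.0283 for it. With UNC1999 it had 168, 144 and 179 CPM against 127, 126 and 165 (0.23, SE 0.12, adjusted p = 0.296). Here control 3 lay among the treated libraries, and without it the adjusted p was 0.0320. DZNep gave 201 and 214 CPM against 194 to 206 (0.07, SE 0.05, adjusted p = 0.307) and UNC0642 189 and 204 against 205 and 174 (0.05, SE 0.10, adjusted p = 0.828). The mean level of the ligand was thus above its controls in the retinas where its receptor Kdr was below. Its libraries overlapped with their controls except with Romidepsin, and it passed the quasi-likelihood test with all libraries in no single experiment. Over the mean of the 4 treatments 4 members passed (24.6% of all genes did, 12.8% as higher and 11.9% as lower, and 1.62% with the fold rule, which no member met), Kdr and Pdgfrb as lower and Vegfa (0.22, SE 0.06, adjusted p = 0.0104) and Slco1c1 (0.27, SE 0.09, adjusted p = 0.0307) as higher. The Slco1c1 call was lost in 9 of the 22 fits that left out 1 library, and the Vegfa call without UNC0642 control 2 (adjusted p = 0.0513).

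After the mean log2 CPM of the controls of the same experiment was subtracted, Kdr had Pearson's r of -0.06 with the mean of the 6 other endothelial members over the 22 retina libraries, 0.75 with Pdgfrb and -0.80 with Vegfa. The 6 endothelial members went both ways: Kdr had r of 0.54 with Cdh5, 0.39 with Cldn5 and 0.28 with Tek, but -0.40 with Flt1, -0.32 with Slco1c1 and -0.27 with Pecam1. These values hold the step from control to treated and share the scaling of each library, and are given as a description. Chosen after the Kdr values were seen, the gene most like Kdr of 17154 compared was Slc1a3, the glutamate transporter GLAST of Müller glia, with r = 0.95 and a Spearman rank correlation of 0.95, and r = 0.94 without the 2 farthest libraries. Within the 12 controls r was 0.70 and within the 10 treated libraries 0.90. The next were Nacc2 (0.95), the transcription factor Maf (0.94), the fatty acid elongase Elovl5 (0.92) and Prelp (0.92). Within the controls these had r of 0.86, 0.65, 0.57 and 0.37.

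**Figure D4:**
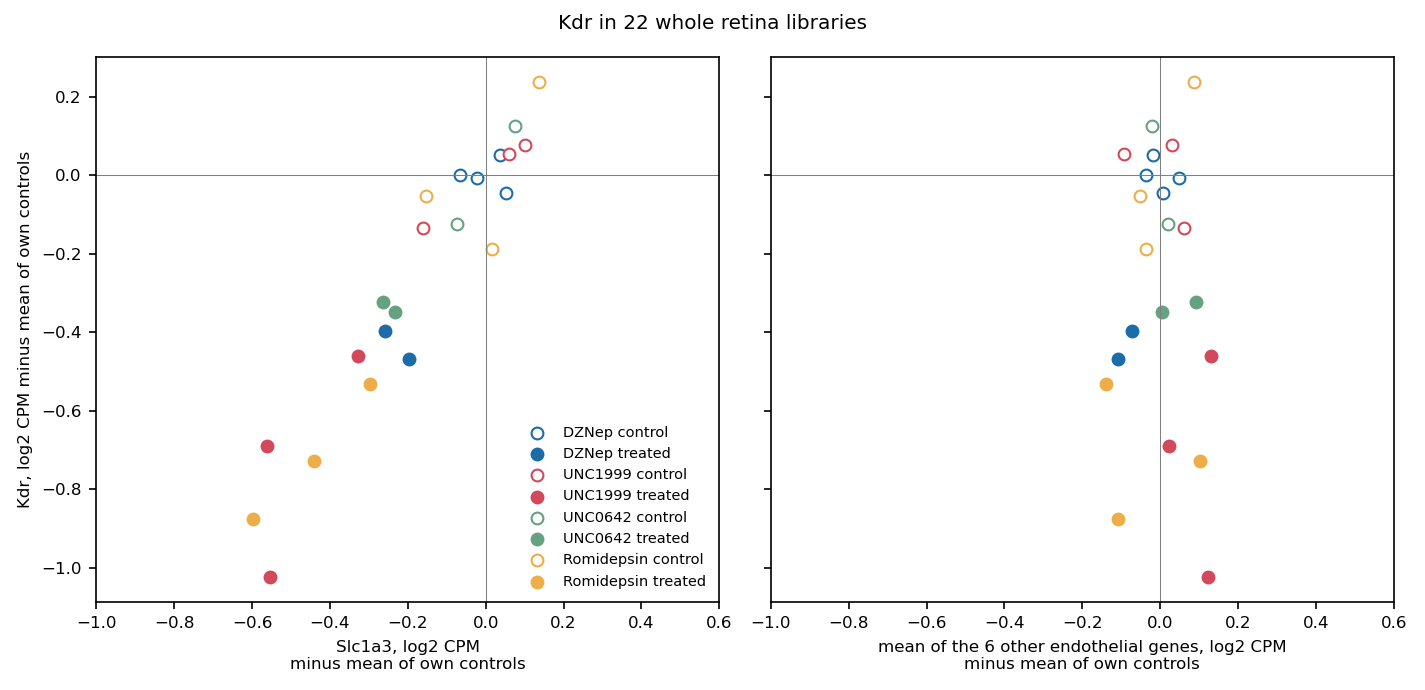
Kdr in the 22 retina libraries, as log2 CPM minus the mean of the controls of the same experiment, against Slc1a3 on the left and against the mean of the 6 other endothelial genes on the right. Kdr and Slc1a3 lay along a line (r = 0.95), while the mean of the other endothelial genes stayed between -0.138 and 0.130 at every Kdr level (r = -0.06).

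Slc1a3 itself had log2 fold changes of -0.24, -0.49, -0.25 and -0.45 with DZNep, UNC1999, UNC0642 and Romidepsin, and passed with DZNep (adjusted p = 0.0132). Of the 6 Müller glia markers 5 fell with DZNep and none passed with UNC1999, UNC0642 or Romidepsin (2, 4 and 6 at an unadjusted p under 0.05). The 2 with UNC1999 were both lower, while those with UNC0642 and with Romidepsin went in both directions. The median log2 fold change was -0.35, -0.31, -0.16 and -0.44. Vim, the intermediate filament gene vimentin, had 0.46 with UNC0642 and 0.64 with Romidepsin (unadjusted p = 0.00216 and 0.0126). Rlbp1 and Glul had 0.31 and 0.27 with UNC1999 (unadjusted p = 0.0898 and 0.502). The summed level of the 6 markers did not fall below the controls with UNC1999, at 3914 to 5451 CPM against 3847 to 5326. Kdr had r = 0.85 with the mean of these markers and -0.74 with the mean of the rod markers, which were higher in treated retinas. The Müller glia list holds Slc1a3, the gene picked above as most like Kdr, and no value without it is given. Both r values hold the step from control to treated. Values within the controls are not given, so these do not rank the lists. Neither list's part in the Kdr values was tested.

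For the mean of the 7 endothelial members the most alike genes were Hrasls (r = 0.83), 4933437F05Rik (0.83), Tmco1 (0.82), Aplnr (0.81), the apelin receptor of sprouting endothelium, and Fbxo16 (0.80), and without the 2 farthest libraries these values were 0.63 to 0.75. Within the 12 controls r was lower for these genes, at 0.61, 0.57, 0.38, 0.17 and 0.27 in that order. For Vegfa the most alike genes were H2-K2 (0.95), Trmu (0.93), Zfp61 (0.93), E4f1 (0.92) and Sfswap (0.92), with 0.62 to 0.95 within the controls.

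For the counts that follow, 22.7% of all genes passed with DZNep in either direction (9.72% as lower) and 0.748% with Romidepsin. A list's count near or under that share is no result about the list. Of 27 other endothelial identity genes 1 rose and 2 fell with DZNep, a share under that of all genes, and 1 rose with Romidepsin, with medians of -0.13 and 0.16. The riser was Podxl, podocalyxin of the luminal surface, in both experiments: it went from 154 ± 23.1 (SD, n = 4) to 255 ± 10.4 CPM (n = 2) with DZNep, and from 150 ± 6.23 (n = 3) to 248 ± 15.5 (n = 3) with Romidepsin, 0.73 on the log2 scale each time (adjusted p = 0.00323 and 0.0328). The control level of Podxl was far above that of Cdh5, which had 14.2 and 17.4 CPM in the same control groups. Which cells carried the Podxl rise was not tested. Cd93 and S1pr1 were the 2 that fell with DZNep (-0.45 and -0.26). Podxl rose and Cd93 and S1pr1 fell over the mean of the 4 treatments as well.

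Of 22 blood-retina barrier genes 5 rose and 2 fell with DZNep, near the 22.7% of all genes, and none passed with the other 3 treatments, with medians of -0.08 to 0.09 over the 4 experiments. Tfrc, the transferrin receptor of capillaries and dividing cells, rose by 0.54, Slc16a1, a lactate transporter, by 0.50, and Fzd4, the norrin receptor, by 0.76, while its partner Lrp5 fell by 0.52. Slc2a1, the glucose transporter of barrier endothelium and photoreceptors, rose by 0.48. Several of these genes are used by retinal neurons and pigment epithelium too, so the list is not one of endothelium alone.

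Of 15 other pericyte and smooth muscle genes tested 5 rose with DZNep and none fell, with a median of 0.43, in retinas where Pdgfrb fell. The share of all genes that passed there was 22.7% in either direction and 9.72% as lower. Ndufa4l2 rose from 3.32 ± 0.633 (n = 4) to 9.33 ± 0.279 CPM (n = 2), Vtn, which photoreceptors also express, from 408 ± 76.8 to 706 ± 9.32, and Myh11, the smooth muscle myosin, from 2.36 ± 0.365 to 3.99 ± 0.776. With Romidepsin Mcam rose from 15.1 ± 2.69 to 31.0 ± 5.40 CPM (n = 3 each, 1.03 on the log2 scale, adjusted p = 0.0492) and was the only 1 of the 15 to pass. None passed with UNC1999 or UNC0642.

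Of 21 other ligands and receptors of vessel growth tested with DZNep 2 rose and 3 fell, and of these Aplnr fell from 3.39 ± 0.386 to 1.20 ± 0.118 CPM (-1.47, adjusted p = 0.00198). The 14 hypoxia response genes tested had 4 risers with DZNep and none that fell (median 0.15), where 22.7% of all genes passed in either direction and 9.72% as lower. None passed with the other treatments. Adm, adrenomedullin, had a log2 fold change of 3.08 with Romidepsin (SE 0.61, adjusted p = 0.0589), in the experiment where Vegfa was highest. The median of the hypoxia list with Romidepsin was 0.08, against -0.01 for all genes. Over the mean of the 4 treatments Adm rose by 0.91, a value carried by Romidepsin, since Adm had 0.18, 0.13 and 0.20 with DZNep, UNC1999 and UNC0642 (adjusted p = 0.609, 0.790 and 0.713). Over the same mean Cxcr4, a chemokine receptor of sprouting endothelium and leukocytes, fell by 0.60. Of the 5 endothelial activation genes tested with DZNep, Vcam1 fell from 75.4 ± 9.61 to 37.6 ± 5.50 CPM and Icam1 from 5.71 ± 1.02 to 3.59 ± 0.0826 (adjusted p = 0.00130 and 0.0323). Both are adhesion molecules for leukocytes. Vcam1 had -1.35 with UNC1999, -0.31 with UNC0642 and -0.75 with Romidepsin without passing. Icam1 did not share this, with -0.02, 0.00 and 0.68 in that order, and did not pass either. The median of the activation list was -0.03, -0.93, 0.05 and 0.43 with DZNep, UNC1999, UNC0642 and Romidepsin. All 7 markers of microglia and macrophages, cells that can express adhesion molecules as well, were below their controls in each of the 4 experiments, a co-movement whose part was not tested. Over the 6 lists together 0 of 103 genes tested passed with UNC1999 (32 at an unadjusted p under 0.05, 19 in the likelihood ratio test, 17 in DESeq2) and 0 of 105 with UNC0642 (10, 1 and 1). The counts by the likelihood ratio test and DESeq2 have no share of all genes beside them and are no result about the lists.

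In sorted rods most vascular genes had low levels. The sorted controls held 5.24% of the control retina level of Kdr, 1.71% of Rgs5, 1.82% of Cldn5, 2.68% of Flt1, 4.11% of Pdgfrb, 6.86% of Tek and 10.7% of Slco1c1, side by side only, because another library kit was used. The Slco1c1 value rests on 1 control, with 21 reads against 0 in the other. Cdh5 had 0 reads in both controls, where 3 reads would be 0.401 and 0.175 CPM. For scale, the Müller glia gene Slc1a3 stood at 5.24% and the rod gene Gnat1 at 411%. Vegfa, at 39.2 and 41.4 CPM or 22.7% of the retina level, and Pecam1, at 14.7 and 6.15 CPM or 68.6%, were higher than the other members on this scale.

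With GSK2879552 0 of the 8 members tested passed in edgeR's quasi-likelihood test (0% of all genes), with 1 at an unadjusted p under 0.05 (4.91% of all genes) and 0 in DESeq2 and in the likelihood ratio test. Cdh5 and Slco1c1 were under the filter on low counts. Every fitted value was above 0, with a median of 0.92 where all genes had -0.01, and 6 of the 8 had both treated libraries above both controls, where 15.9% of all genes tested did. Cdh5 had 11 reads and 1 read in the treated libraries against 0 in both controls, too few to read a difference from. Kdr had 43.8 and 33.3 CPM against 26.9 and 29.5 (0.45, SE 0.26, adjusted p = 0.987), and Vegfa 81.1 and 53.5 against 39.2 and 41.4 (0.74, SE 0.26, unadjusted p = 0.0201, adjusted p = 0.984). Rgs5 had 3.43 and 8.28 CPM against 1.61 and 2.87, from 12 to 82 reads a library. The 6 Müller glia markers were also above their controls, all 6 by fitted value (median 0.53), with summed levels of 324 to 335 CPM against 169 to 237. Their part in the values of the vascular genes was not tested.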

How the data were processed

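The values deposited by the authors were raw read counts per Ensembl gene for 26 libraries, with no normalization. Per the methods and labels, reads were trimmed with BBDuk, aligned with HISAT2 2.2.1 to NCBIM37 and counted with HTSeq 0.11.2 on Ensembl release 67. Whether the counting used strand is not given in the sources used here, and Pecam1 overlaps a U3 gene on the other strand. Whole retina libraries used a stranded mRNA kit and sorted rods a SMART-Seq kit. Symbols and positions came from GENCODE mouse release 1 on the same build.

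Each treatment was compared with its own controls in edgeR 4.0.16 (R 4.3.3), with filterByExpr, TMM factors and the quasi-likelihood F test, and p-values were adjusted by Benjamini-Hochberg over all genes tested. The SE of a log2 fold change is its size over the square root of F. CPM values use TMM-scaled library sizes. Differences between treatments came from a fit of all 22 retina libraries, and likeness from log2 CPM with a prior count of 2. The steps were tested on simulated data. The likelihood ratio test of the study, its added rule of an absolute log2 fold change above 1, DESeq2 1.42.0, RLE factors, no filter, a minimum of 10 counts, a replicate block, the pooled fit and leaving out each library were the alternatives.

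The members and lists were chosen with earlier results of these data known. The text names the 10 members, of each list up to 3 genes in each direction that passed with an absolute log2 fold change above 0.5, and the 5 most alike genes. S1pr1, Cd93, Slc2a1, Slc1a3, Vim, Rlbp1, Glul, Gnat1, the later values of Vcam1 and Icam1, and the genes most like Kdr were added after their values were seen. Replicates were not copies of each other (lowest chi-square per gene 3.72 over 23 pairs).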

Additional observations from a re-analysis of the deposited data

Results flagged for a closer look

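Among the 10 members in the 4 DZNep controls, the only group large enough for a check of single libraries, 2 genes had a library far from the others, and chance gives about 1 in 20. Slco1c1 was low in control 3, at 5.72 CPM against 6.69 to 6.84, a gap of 0.867 of the group's range. Vegfa was high in control 4, at 206 CPM against 194 to 195, a gap of 0.850 of the range. Without control 3 the DZNep value of Slco1c1 was 0.11 on the log2 scale (adjusted p = 0.539), and without control 4 that of Vegfa was 0.09 (0.218).

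The effect on Slco1c1 differed between UNC1999 and Romidepsin by 1.49 on the log2 scale (adjusted p = 0.00362), 1.11 with UNC1999 and -0.39 with Romidepsin. Markers of the retinal pigment epithelium differed in the same direction, with medians of 1.71 and -0.73. So did those of choroid pigment cells, with 1.57 and -1.14, and the part of either list was not tested.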

How the results depend on the processing

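The lower level of Kdr in whole retina kept its sign in each alternative run in all 4 experiments. Its DZNep call was lost under a rule on fold size, below, and in the fit of all 22 retina libraries (adjusted p = 0.0577), where Cldn5 (0.273) and Pdgfrb (0.192) were lost too. The count of members that passed changed as follows. With DZNep 3 became 0 in the fit of all 22 libraries and 0 with an absolute log2 fold change above 1 asked for. With UNC1999 0 became 3 in DESeq2, 3 in the fit of all 22, 3 in the likelihood ratio test and 2 with no filter, and 0 to 3 when 1 library was left out, with 3 without UNC1999 control 3. With UNC0642 0 became 1 in DESeq2 and 2 with no filter. With Romidepsin 0 became 2 in DESeq2, 2 in the fit of all 22, 2 in the likelihood ratio test and 1 with no filter, and 0 to 1 when 1 library was left out, with 1 (Kdr, adjusted p = 0.0476) without Romidepsin library 1. For the mean of the 4 treatments 4 became 0 with the fold rule and 2 to 6 when 1 library was left out, with 2 without UNC0642 control 2 and 6 without Romidepsin library 2, where Cdh5 (0.0333) and Cldn5 (0.0167) passed. The 1 difference between treatments became 1 to 2, with Cldn5 added without Romidepsin library 3 and Slco1c1 between UNC1999 and UNC0642 added without UNC1999 control 3. Without that control Vegfa also passed with UNC1999 (0.0320). Flt1 passed with DZNep with RLE factors (0.0470), a minimum of 10 counts (0.0471), no filter (0.0480) and without control 1 (0.00462). The cause of these changes was not tested.

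Slco1c1 lost its call over the mean of the 4 treatments with no filter (0.0647) and without DZNep libraries 1 or 2, Romidepsin control 3, UNC0642 libraries 1 or 2, UNC0642 controls 1 or 2, UNC1999 library 3 or UNC1999 control 2, with adjusted p-values up to 0.0780. Small values changed sign when 1 library was left out, none of them a call. The lowest and highest values over these fits were -0.07 and 0.01 for Cdh5, -0.25 and 0.02 for Tek and -0.12 and 0.09 for Rgs5 with DZNep, -0.13 and 0.13 for Tek and -0.21 and 0.00 for Rgs5 with UNC1999, and -0.15 and 0.32 for Pecam1, -0.01 and 0.19 for Cldn5, -0.12 and 0.12 for Flt1 and -0.06 and 0.17 for Vegfa with UNC0642. They were -0.16 and 0.37 for Cldn5 and -0.14 and 0.03 for Rgs5 with Romidepsin, -0.17 and 1.08 for Pecam1 in sorted rods, and -0.02 and 0.10 for Pecam1 over the mean of the 4 treatments. Replicate numbers showed no pairing common to the experiments. Correlations of deviations between same-numbered libraries were -0.279 to 0.230 over the experiments, with 1 of 3 pairs above 0.1 with UNC1999 and with Romidepsin. With UNC0642 both pairs had 0.213. In a design with 2 libraries a group both pairs have the same value by construction, so pairing could not be decided there. With the replicate number as a block 2 members passed with DZNep, where Pdgfrb was lost (0.132) and Tek turned to 0.00, and 0 in each other experiment. The replicate block moved the number of all genes called from 3734 to 933 with DZNep, 95 to 30 with UNC1999, 0 to 589 with UNC0642, 120 to 97 with Romidepsin and 0 to 3 in sorted rods. Over all alternatives these numbers ran from 281 to 4537, 4 to 2707, 0 to 1052, 0 to 2987 and 0 to 210. Depth limits Cdh5, Cldn5, Tek, Slco1c1, Pdgfrb and Rgs5 in sorted rods, where a change could not be measured well from so few reads.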

Other observations

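In sorted control rods Pecam1 stood at 68.6% of its control retina level although Cdh5, the other general endothelial gene, had 0 reads. A few markers of other cell types were also high on this scale, with the pigment epithelium gene Rdh5 at 54.3%, the red cell gene Alas2 at 40.8%, and the macrophage genes Csf1r and P2ry12 at 31.0% and 28.7%, while their neighbours in those lists were low: Rpe65 at 0%, Hbb-b1 at 2.32% and Cx3cr1 at 3.41%. The pair of control libraries differed for Pecam1, 14.7 against 6.15 CPM from 110 and 105 reads, and the reason was not tested.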
